A study of Mus musculus with 3 samples.

Results

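Hhex, Rbp4, Ghsr, Fam159b, Ly6h, Cd24a, Spock3, Ptprz1 and Neurog3 are 9 genes whose transcripts mark the delta cells of mouse pancreatic islets. They were taken by name from the 17226 genes listed over 3 tables of single-cell RNA-seq counts, and each of them had a row in every table. The tables come from dissociated islets of adult C57/Bl6 mice, either WT or with *Taf4* made inactive in beta cells. For WT, 300 islets of 1 mouse gave the library. For each mutant library the islets, again 300, were pooled from 2 mice, 1 week (Taf4 KO 1 week) or 5 weeks (Taf4 KO 5 weeks) after inactivation. *Taf4* encodes a subunit of TFIID, the complex that binds core promoters to start transcription by RNA polymerase II. Per the study's methods, floxed *Taf4* alleles were cut by the Ins1::Cre-ERT2 transgene, whose insulin promoter drives a tamoxifen-dependent recombinase in beta cells, and tamoxifen was given to the mice. The study describes its controls as carrying the same driver and tamoxifen, while the labels of the WT library state only a wild type genotype. The driver is one of beta cells, so the *Taf4* of delta and alpha cells was not its target. The question was how the delta-cell genes are spread over the endocrine cell types with and without *Taf4* in beta cells.

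Delta cells are the islet cells that make somatostatin, a peptide that acts locally to hold back both insulin and glucagon release. Their identity depends on the homeobox factor HHEX, and they sense ghrelin through the receptor GHSR. NEUROG3 is the helix-loop-helix factor that starts the endocrine programme in pancreatic progenitors, and its transcript is scarce in adult islets.

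Each cell was assigned by its share of hormone UMIs, a UMI being 1 counted transcript molecule, so none of the 9 genes took part in the assignment. In the WT and 5-week libraries, delta cells held 5% or more of their UMIs as *Sst* (somatostatin) with under 20% *Ins2* and under 5% *Gcg* (glucagon). Beta cells held 20% or more *Ins2* with under 3% *Gcg*, and alpha cells 15% or more *Gcg*. At 1 week the limits were 1.5% for *Sst* with under 5% *Ins2* in delta cells, 5% *Ins2* for beta cells and 8% *Gcg* for alpha cells, among barcodes with 5000 or more UMIs. These classes are ranges and not fixed types: 9 of the 619 WT delta cells lay within 20% above the *Sst* limit and 10 other cells within 20% below it, against 40 and 32 at 5 weeks. The classes held 619, 37 and 1213 delta cells, 8271, 562 and 5685 beta cells, and 2815, 175 and 3322 alpha cells in WT, 1 week and 5 weeks. Of the 8 delta markers fixed for a check of the classes, 6 are members and *Sst* set the class, and all 8 were detected in 5-week beta and alpha cells too, so their detection does not separate the classes. The remaining marker, *Tspan8*, a tetraspanin, was at 285.1, 408.5 and 308.1 CPM in the delta cells of WT, 1 week and 5 weeks, at 7.543, 2 and 9.436 CPM in beta cells and at 26.6, 9.673 and 35.36 CPM in alpha cells (CPM as defined in the next paragraph).

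Levels are UMIs of a gene per 1000000 UMIs of the class (CPM), with exact Poisson 95% intervals. With 1 library per group there is no test between groups, and intervals cover counting error within a library only. Animal, genotype and library cannot be told apart. The labels name male mice for all libraries, but the WT library held 17357 UMIs of *Xist*, a transcript of the inactive X chromosome, and 0 of the Y-linked *Ddx3y*, whereas the mutant libraries held 17 and 11 *Xist* UMIs and 1488 and 1349 *Ddx3y* UMIs. Sex as read from these genes is therefore also joined with genotype. The libraries held 12000, 2295 and 11229 barcodes and between 19472212 and 39408284 UMIs. Cells with hormones of more than 1 class and doublets were removed by the authors from WT only, and 33 barcodes were shared by WT and 5 weeks, 2 by WT and 1 week and 5 by 1 week and 5 weeks. Delta cells were shallow in WT (median 622 UMIs) and at 5 weeks (1138) but deep at 1 week (17687). *Taf4* itself gave 75, 113 and 99 UMIs in the beta cells of WT, 1 week and 5 weeks. Which exons were deleted is not given in the sources used here, so these counts do not check the inactivation.

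The regions just before the transcription starts are printed for the 2 transcription factors of the set, *Hhex* and *Neurog3*, and for *Rbp4* and *Fam159b*, the 2 members with most UMIs outside delta cells. They are RefSeq promoters of 120 bases on GRCm38.p6, read 5′ to 3′ on the gene's strand, with a motif in capitals where TATAAA or CCAAT was found on either strand.
Hhex, chr19:37434721-37434840, plus strand: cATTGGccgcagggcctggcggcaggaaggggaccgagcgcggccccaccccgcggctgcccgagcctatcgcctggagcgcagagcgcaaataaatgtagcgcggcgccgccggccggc
Neurog3, chr10:62132970-62133089, plus strand: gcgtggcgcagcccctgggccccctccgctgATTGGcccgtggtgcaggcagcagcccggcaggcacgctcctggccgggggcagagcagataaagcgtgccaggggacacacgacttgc
Rbp4, chr19:38124812-38124931, minus strand: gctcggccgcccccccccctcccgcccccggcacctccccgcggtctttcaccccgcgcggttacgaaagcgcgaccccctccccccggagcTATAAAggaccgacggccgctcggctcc
Fam159b, chr13:104863894-104864013, minus strand: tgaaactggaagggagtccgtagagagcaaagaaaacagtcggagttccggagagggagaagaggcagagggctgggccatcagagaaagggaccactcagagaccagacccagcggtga
*Rbp4* held TATAAA 28 to 23 bases before its start. *Hhex* held CCAAT on the opposite strand 119 to 115 bases before the start and *Neurog3* 89 to 85 bases before it, where the capitals read ATTGG. *Fam159b* held neither. TATAAA was found in 6.34% and CCAAT in 21.3% of 32851 windows of this length before annotated starts, so both matches are descriptions and no evidence of use. GC content was 75% for *Hhex*, 72.5% for *Neurog3*, 76.67% for *Rbp4* and 56.67% for *Fam159b*. *Rbp4* has a further annotated start, whose window had 34.17% GC and neither motif.

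In WT islets the members were far higher in delta cells than in beta or alpha cells, with *Rbp4* also present in alpha cells and *Fam159b* in beta cells. A gene was counted as delta-high where its level was at least 4-fold that of beta cells and at least 4-fold that of alpha cells of the same library, with 20 or more UMIs in each pair of sums. Among the 7348 genes that could be compared in WT, 1.65% were delta-high, and all 7 members that could be compared were among them. The members were chosen as delta-cell genes with earlier results of these data known. These counts and the ranks below therefore describe the set and are no test of it. *Ghsr* and *Neurog3* were too sparse to be counted. Ranked by the smaller of both ratios, *Sst* came 1st, *Ly6h* 2nd, *Hhex* 3rd, *Spock3* 4th, *Ptprz1* 6th, *Cd24a* 8th, *Fam159b* 19th and *Rbp4* 45th. The 5 leading genes among the 895 with 50 or more UMIs in WT delta cells were *Sst*, *Ly6h*, *Hhex*, *Mef2c* and *Cd24a*. At 1 week 7 of 8 members were delta-high beside 2.60% of all genes, and at 5 weeks 9 of 9 beside 3.22%. Under TMM scaling, which sets libraries level by a trimmed mean of their gene ratios, the 5-week count was 8 of 9, without *Rbp4*. The exception at 1 week was *Rbp4*, whose level in delta cells was 1.62 log2 units above that in alpha cells. The 1-week count rests on deep cells: with every cell thinned to 500 UMIs only 2 members could be compared and 1 was delta-high.

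**Figure D1:**
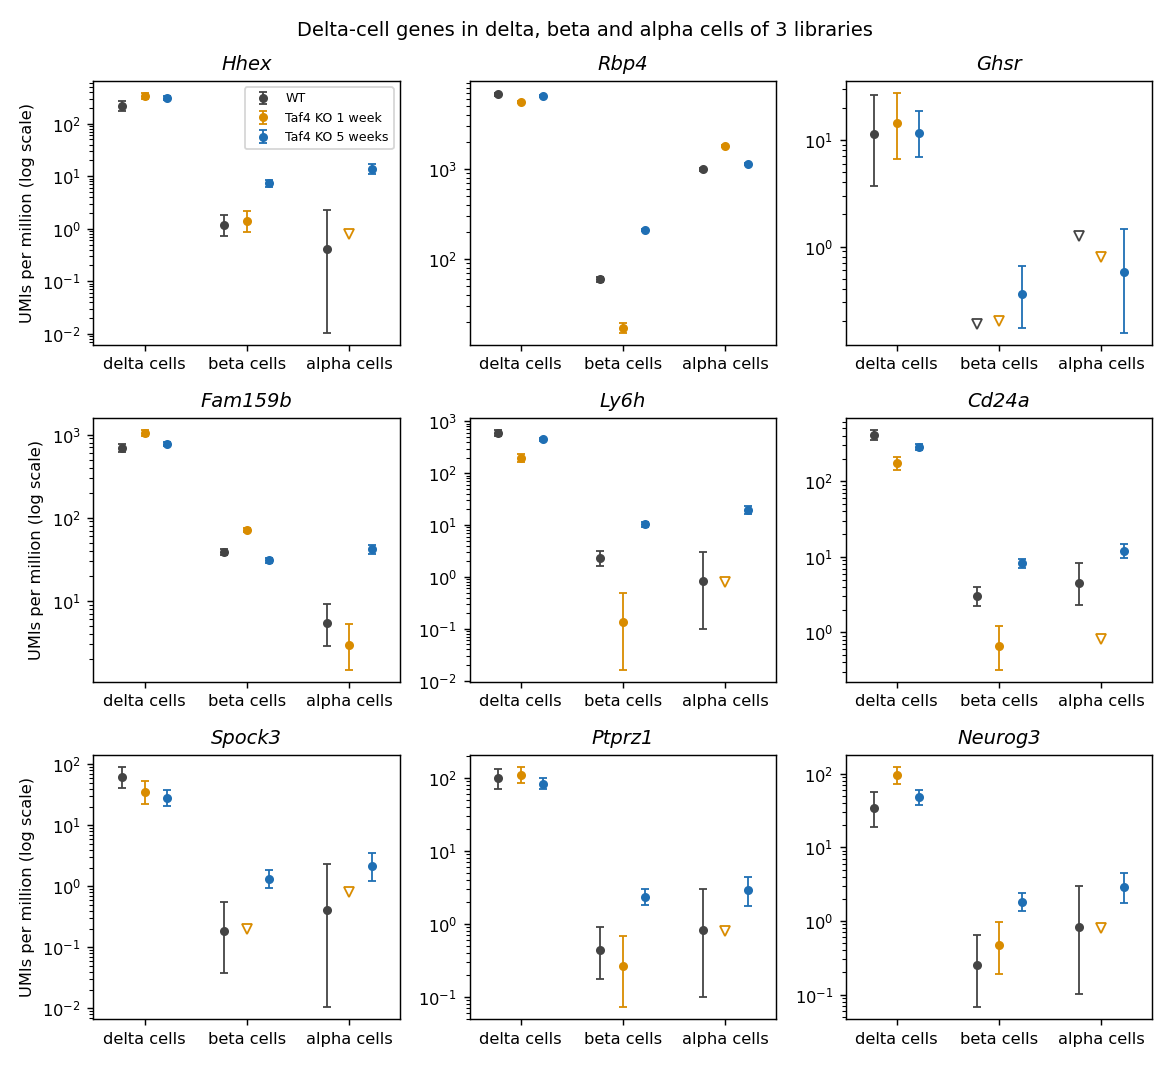
Level of each of the 9 genes (CPM, log axis) in delta, beta and alpha cells of the WT, Taf4 KO 1 week and Taf4 KO 5 weeks libraries. Points are sums over the cells of 1 library, bars are exact Poisson 95% intervals, and open triangles mark the value of 3 counts where no UMI was seen; delta cells stand above both other classes for every gene, with *Rbp4* in alpha cells closest at 1001.9 to 1818.7 CPM.

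*Hhex* (19:37434841-37440731), the homeobox factor of delta cells, was at 219 CPM in WT delta cells (96 UMIs, interval 177.4 to 267.4), at 334.5 at 1 week (208 UMIs, 290.6 to 383.2) and at 302.9 at 5 weeks (467 UMIs, 276.1 to 331.7). Both mutant intervals lie above that of WT and overlap each other. In beta cells it was at 1.184, 1.4 and 7.327 CPM (19, 21 and 205 UMIs), and in alpha cells at 0.4156, 0 and 13.74 CPM (1, 0 and 96 UMIs). The levels in beta and alpha cells were thus low everywhere, and highest at 5 weeks. *Hhex* was seen in 13.73% of WT, 89.19% of 1-week and 29.84% of 5-week delta cells, shares that move with depth: with each cell thinned to 500 UMIs they were 9.532%, 13.51% and 13.85%, beside 0.07254% of WT and 0.5805% of 5-week beta cells.

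*Neurog3* (10:62133090-62134763), the endocrine progenitor factor, was sparse but was also found in delta cells of every library. It was at 34.21 CPM in WT (15 UMIs, 19.15 to 56.43), at 94.89 at 1 week (59 UMIs, 72.23 to 122.4) and at 48 at 5 weeks (74 UMIs, 37.69 to 60.26). The 1-week interval lies above that of WT, while those of WT and 5 weeks overlap. Beta cells gave 4, 7 and 51 UMIs (0.2494, 0.4668 and 1.823 CPM) and alpha cells 2, 0 and 20 UMIs. The transcript was thus highest in *Sst*-high cells of each library, WT included. At 1 week a single delta cell gave 13 of the 59 UMIs, or 22.03%, and 20 of 37 cells held at least 1.

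*Rbp4* (19:38116620-38125321), which encodes the retinol carrier of plasma, was the member with most UMIs in the delta and alpha cells of every library. It was at 6748.7 CPM in WT delta cells (2959 UMIs, 6507.7 to 6996.4), at 5585.7 at 1 week (3473 UMIs, 5401.4 to 5774.6) and at 6456.5 at 5 weeks (9954 UMIs, 6330.3 to 6584.6). WT and 5 weeks were close to each other, and 1 week was the lowest. Alpha cells held it at 1001.9, 1818.7 and 1144.4 CPM, and 37.05%, 53.14% and 38.62% of them had a UMI after thinning to 500, against 89.66%, 81.08% and 90.77% of delta cells. Beta cells were far lower, at 60.09, 17.4 and 209.5 CPM. *Rbp4* was thus a transcript of delta and alpha cells in all 3 libraries, with the lowest level of each in beta cells.

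*Ghsr* (3:27371351-27379235), the ghrelin receptor, was close to the limit of these data. It gave 5 UMIs in WT delta cells (11.4 CPM, 3.703 to 26.61), 9 at 1 week (14.47 CPM, 6.619 to 27.48) and 18 at 5 weeks (11.68 CPM, 6.92 to 18.45). The 3 intervals overlap. No UMI was seen in WT or 1-week beta or alpha cells, and 10 and 4 were seen in beta and alpha cells at 5 weeks. The 0 UMIs of WT beta cells have an exact upper limit of 0.23 CPM, and 3 UMIs there would give 0.187 CPM.

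*Fam159b* (13:104845283-104863893), annotated by RefSeq as *Shisal2b*, encodes a small membrane protein of the Shisa-like group. It was at 686.5 CPM in WT delta cells (301 UMIs, 611.1 to 768.6), at 1048.6 at 1 week (652 UMIs, 969.7 to 1132.3) and at 773.2 at 5 weeks (1192 UMIs, 729.9 to 818.3). The 1-week value stands above the other two. In beta cells it was at 38.53, 71.08 and 30.85 CPM (618, 1066 and 863 UMIs), which gave it the smallest step of the members between delta and beta cells in WT and at 1 week. Alpha cells were at 5.402, 2.956 and 41.51 CPM, below beta cells in WT and at 1 week but above them at 5 weeks.

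*Ly6h* (15:75564745-75569470), a lipid-anchored surface protein of the Ly6 family that binds nicotinic receptors, was at 602.1 CPM in WT delta cells (264 UMIs, 531.7 to 679.3), at 196.2 at 1 week (122 UMIs, 162.9 to 234.3) and at 451.4 at 5 weeks (696 UMIs, 418.5 to 486.3). No 2 of these intervals overlap, and the order was WT, then 5 weeks, then 1 week. In WT it was almost confined to delta cells, with 2.307 CPM in beta cells (37 UMIs) and 0.8311 in alpha cells (2 UMIs). At 1 week 2 UMIs were seen in beta cells and 0 in alpha cells, and at 5 weeks 291 and 138 (10.4 and 19.75 CPM).

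*Cd24a* (10:43579169-43584265), a small mucin-like surface protein, had the same order as *Ly6h* at other levels. It was at 410.5 CPM in WT delta cells (180 UMIs, 352.7 to 475.1), at 173.7 at 1 week (108 UMIs, 142.5 to 209.7) and at 284.1 at 5 weeks (438 UMIs, 258.1 to 312). The gene has processed copies elsewhere in the mouse genome, so its counts are uncertain. Beta cells held 3.055, 0.6668 and 8.185 CPM and alpha cells 4.571, 0 and 12.02 CPM.

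*Ptprz1* (6:22875315-23052916), a receptor-type tyrosine phosphatase that binds pleiotrophin, was at 98.07 CPM in WT delta cells (43 UMIs), at 109.4 at 1 week (68 UMIs) and at 83.03 at 5 weeks (128 UMIs). These differences lie within counting error. It gave 7, 4 and 66 UMIs in beta cells and 2, 0 and 20 in alpha cells. Its annotated span overlaps *Gm30493* and *Gm46954*, whose reads could not be separated here.

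*Spock3* (8:62951000-63357101), a secreted proteoglycan of the testican family, was at 61.58 CPM in WT delta cells (27 UMIs, 40.58 to 89.6), at 35.38 at 1 week (22 UMIs, 22.17 to 53.57) and at 28.54 at 5 weeks (44 UMIs, 20.74 to 38.31). The 5-week interval lies below that of WT, and the 1-week interval overlaps both. It gave 3, 0 and 37 UMIs in beta cells and 1, 0 and 15 in alpha cells. Its span overlaps *Gm24236*.

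Single delta cells held few of the 9 genes at these depths. With each cell thinned to 500 UMIs, 36.51% of WT delta cells showed 1 member and 36.03% showed 2, while 33 of 619 (5.331%) showed none, against 5 of 37 at 1 week and 47 of 1213 (3.875%) at 5 weeks. Without thinning, 3 of the 37 deep 1-week delta cells held all 9 together, and none of the 619 WT or 1213 5-week delta cells did. In beta cells thinned in the same way, 95.04% in WT, 95.2% at 1 week and 90.54% at 5 weeks held no member.

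In delta cells at 5 weeks *Spock3* was lower than in WT by more than 2-fold, and the other 8 members lay within 2-fold of WT. Changes are log2 ratios of CPM with exact conditional 95% intervals, and a gene was counted as higher or lower where it differed 2-fold or more with 20 or more UMIs in both sums together. Of the 9 members 1 was lower and 0 were higher, while 14.2% of all 7796 genes compared passed 2-fold, with 11.7% of the 7796 higher and 2.48% lower (9.62% and 3.78% under TMM scaling). The share of members past 2-fold was thus near that of all genes. The member median was -0.06 and that of all genes 0.19. *Spock3* was the lower member, at -1.11 (-1.83 to -0.36), a 2.158-fold lower level from 27 WT and 44 mutant UMIs. *Cd24a* at -0.53 (-0.78 to -0.27) and *Ly6h* at -0.42 (-0.62 to -0.21) were lower by less than 2-fold, with intervals below 0. *Hhex* was the 1 member with an interval above 0, at 0.47 (0.15 to 0.80). *Fam159b* at 0.17 (-0.01 to 0.36), *Neurog3* at 0.49 (-0.33 to 1.40), *Ptprz1* at -0.24 (-0.75 to 0.29) and *Ghsr* at 0.03 (-1.45 to 1.82) had intervals that include 0, and *Rbp4* was at -0.06 (-0.12 to -0.00). *Sst* itself was at 153350.5 CPM in WT and 131964.4 at 5 weeks, a ratio of -0.22.

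The delta cells of the libraries differed in other transcripts as well. The 12 acinar enzyme markers summed to 16334.7 CPM in WT delta cells, 344.2 at 1 week and 2868.9 at 5 weeks, with all 12 detected in WT and at 5 weeks and 5 of 12 at 1 week, where *Prss2*, *Cpa1* and *Cel* were at 0. The 15 beta markers summed to 111517.1, 52170.3 and 102282.9 CPM, with 14, 13 and 14 detected. *Ppy*, the pancreatic polypeptide hormone, was at 18905.1, 27141.8 and 23257.4 CPM in the same cells. The part of these transcripts in the ratios was not tested.

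At 1 week the delta cells differed more, on 37 cells. Of the 8 members that could be compared 1 was higher and 2 were lower, beside 30.6% of 6079 genes in either direction, 27.3% higher and 3.27% lower (13.1% and 7.24% under TMM scaling). *Ly6h* was lower by 3.069-fold, at -1.62 (-1.94 to -1.30), and *Cd24a* by 2.364-fold, at -1.24 (-1.60 to -0.89). With the class limits of WT used at 1 week *Cd24a* was at -0.90 (-1.32 to -0.50) and did not pass 2-fold. *Neurog3* was higher, at 1.47 (0.64 to 2.40), also without the cell that gave 13 of its UMIs, but it fell short of 2-fold under TMM scaling, where *Spock3* was lower. *Hhex* and *Fam159b* were both at 0.61 (0.26 to 0.98 and 0.41 to 0.81), near the median of all genes of 0.53. *Rbp4* was at -0.27 (-0.34 to -0.20), *Spock3* at -0.80 (-1.68 to 0.07) and *Ptprz1* at 0.16 (-0.41 to 0.74). *Sst* was lower by 2.34-fold, with 65528.9 CPM. The 1-week cells were chosen at 5000 or more UMIs and at another *Sst* limit, which cannot be told apart from genotype. A filter of 200 to 1500 genes and under 15% mitochondrial UMIs per cell, without the 5000-UMI minimum, left 4 delta cells at 1 week. With it 0 of 7 members passed 2-fold, beside 20% of 2445 genes higher and 3.48% lower. Its limits come from the study's passage on aggregated libraries. The study counts as many cells in this library as there are barcodes, so the filter appears not to have been used there. Both mutant libraries were compared with the same WT library, so the 2 sets of ratios share it.

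**Figure D2:**
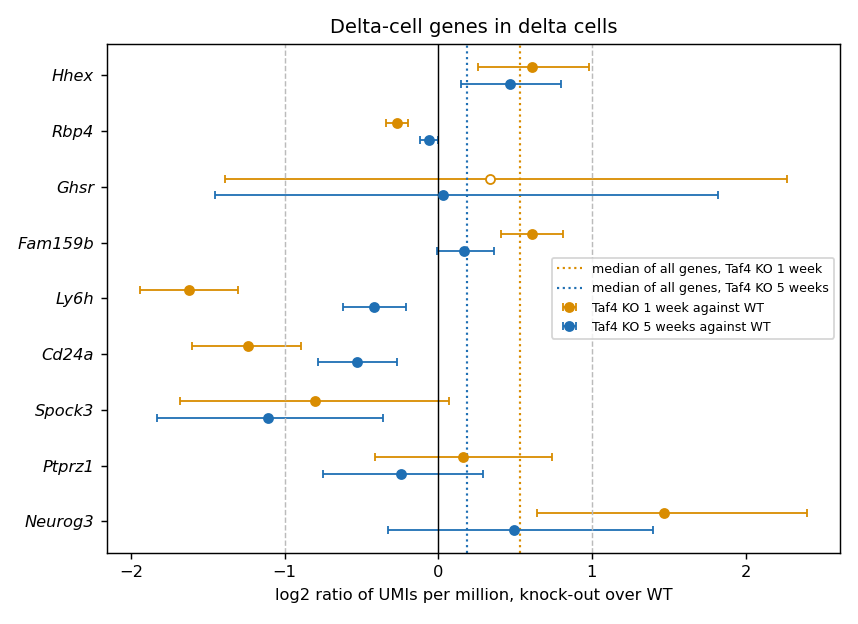
Log2 ratio of each member's level in delta cells against WT, at 1 week and at 5 weeks. Points are ratios of CPM from 1 library each, bars are exact 95% intervals for counting error, dashed lines mark 2-fold and dotted lines the medians of all genes (0.53 at 1 week and 0.19 at 5 weeks), and the open circle is *Ghsr* at 1 week, with under 20 UMIs; *Ly6h* and *Cd24a* lie lowest at 1 week and *Spock3* at 5 weeks.

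Directly between the mutant libraries, 1 of 9 members was higher in delta cells at 5 weeks than at 1 week and 0 were lower, beside 5.33% of 8448 genes higher and 16.3% lower (21.6% in all). *Ly6h* was the higher member, by 2.301-fold. *Cd24a* was at 0.71 (0.40 to 1.03) and *Neurog3* at -0.98 (-1.50 to -0.46), with a median of -0.36 for all genes. *Sst* was 1.01 log2 units higher at 5 weeks, but it also set the class, at 1.5% or more at 1 week and 5% or more at 5 weeks. Its ratio is therefore no independent result.

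In beta cells at 5 weeks most of the delta-cell genes were higher than in WT, at levels far below those of delta cells. Of 8 members compared 7 were higher and 0 lower, beside 9.43% of 11882 genes higher and 5.99% lower (7.41% and 7.16% under TMM scaling). The ratios were 2.63 (1.95 to 3.39) for *Hhex*, 2.17 (1.68 to 2.71) for *Ly6h*, 1.80 (1.70 to 1.90) for *Rbp4* and 1.42 (0.97 to 1.90) for *Cd24a*. *Spock3* at 2.82 and *Ptprz1* at 2.43 rested on 3 and 7 WT UMIs, and *Neurog3* at 2.87 on 4. *Fam159b* went the other way, at -0.32 (-0.47 to -0.17). *Ghsr* gave 10 UMIs against 0, too few to be counted. This is 1.911-fold the level that 3 WT UMIs would give, and the exact lower limit of the log2 ratio is 0.36. The member median was 2.30 and that of all genes 0.18. *Sst* was higher in the same cells by 11.35-fold, at 2966.2 against 261.4 CPM.

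Alpha cells at 5 weeks gave a like picture. Of 7 members compared 6 were higher and 0 lower, beside 7.41% of 10544 genes higher and 2.11% lower. *Fam159b* was at 2.94 (2.15 to 3.87), from 13 WT and 290 mutant UMIs. *Ly6h* at 4.57 (2.69 to 7.63) rested on 2 WT UMIs and *Hhex* at 5.05 (2.53 to 10.37) on 1. *Cd24a* was at 1.40 (0.48 to 2.45), and *Ptprz1* and *Neurog3* were both at 1.78 (-0.26 to 4.93) from 2 WT and 20 mutant UMIs. *Rbp4*, already an alpha-cell transcript in WT, was at 0.19 (0.13 to 0.26). *Sst* was 10.3-fold higher, at 4778.0 against 463.8 CPM.

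**Figure D3:**
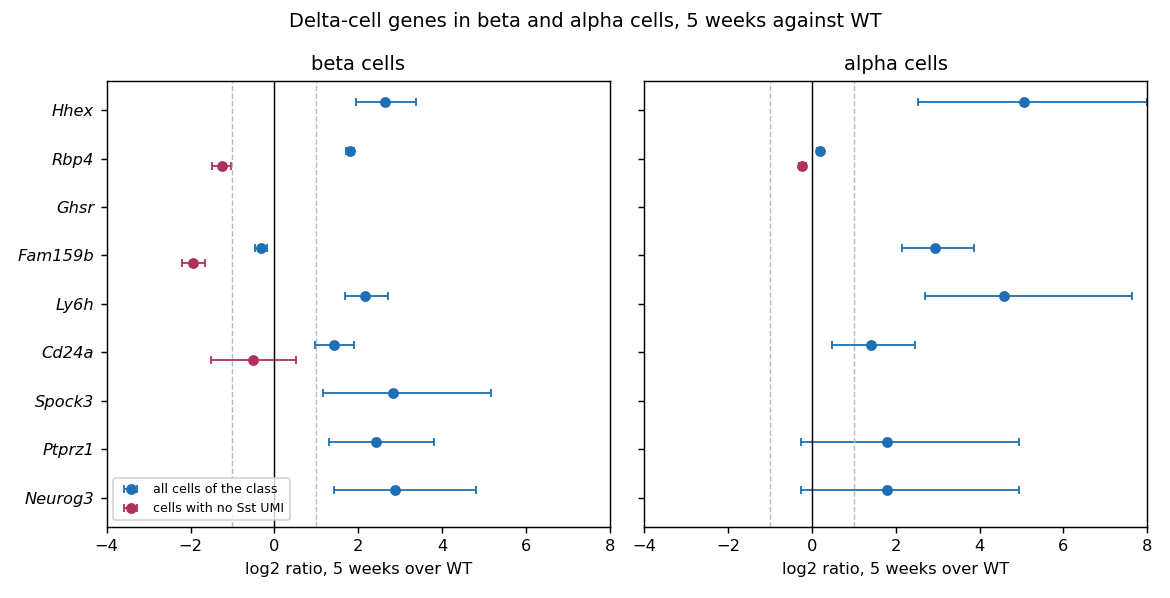
Log2 ratio of each member at 5 weeks against WT in beta cells (left) and alpha cells (right), over all cells of the class (blue) and over cells with no *Sst* UMI (red), for genes with 20 or more UMIs in both sums together and neither sum at 0. Points are ratios of CPM from 1 library each, bars are exact 95% intervals for counting error drawn up to a log2 ratio of 8, and dashed lines mark 2-fold; over all cells 7 of 8 members in beta cells and 6 of 7 in alpha cells lie past 2-fold to the right, and over cells with no *Sst* UMI *Rbp4* and *Fam159b* in beta cells lie past 2-fold to the left.

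The higher levels in beta and alpha cells at 5 weeks moved with *Sst*. Beta cells were divided by the share of their UMIs that was *Sst*: 3084 cells (54.25%) had none, 1662 (29.23%) had under 0.1%, 403 (7.089%) had 0.1% to under 1%, 408 (7.177%) had 1% to under 5% and 128 (2.252%) had 5% or more. *Hhex* was at 0.6713, 1.031, 14.56, 64.46 and 93.69 CPM in this order. *Ly6h* was at 0.4699, 0.5726, 21.61, 79.89 and 217 CPM. *Rbp4* was at 16.38, 24.97, 446.7, 1691.4 and 3397.6 CPM. *Fam159b* was at 10, 11.11, 63.88, 175.7 and 399.4 CPM. The 4 genes were thus near their lowest levels in the 2 groups with least *Sst*, and climbed with every further step. In WT only 4 of 8271 beta cells had 1% or more *Sst*, and cells with hormones of 2 classes had been removed from that library alone.

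Alpha cells at 5 weeks showed a like gradient over 1671, 967, 422, 188 and 74 cells. *Hhex* was at 0.3099, 2.65, 11.63, 90.89 and 126.6 CPM and *Fam159b* at 3.719, 4.858, 20.36, 289.5 and 379.9 CPM. *Rbp4* began from its alpha-cell level and was at 856.2, 837.4, 1115.4, 2884.9 and 4009.8 CPM.

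**Figure D4:**
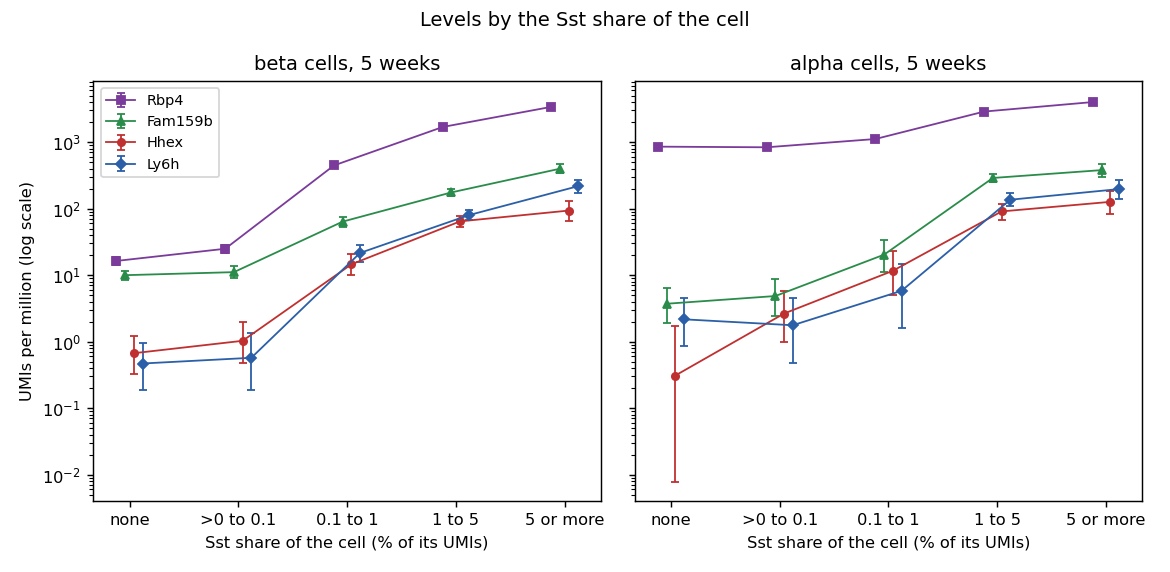
Level of *Rbp4*, *Fam159b*, *Hhex* and *Ly6h* (CPM, log axis) in beta and alpha cells of the 5-week library, divided by the share of their UMIs that is *Sst*. Points are sums over the cells of a group, and bars are exact Poisson 95% intervals; *Hhex* in beta cells runs from 0.6713 CPM with no *Sst* UMI to 93.69 CPM at 5% or more.

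The ratio of each gene to *Sst* was close to that of delta cells for some members and well above it for others. Per 1000 *Sst* UMIs, 5-week beta cells held 2.47 *Hhex* and 3.506 *Ly6h* UMIs, and delta cells of that library 2.295 and 3.421. Taken at the delta-cell ratio, the *Sst* UMIs of 5-week beta cells correspond to 92.92% of their *Hhex* and 97.56% of their *Ly6h* UMIs, against 69.28% for *Rbp4*, 56.34% for *Fam159b* and 48.51% for *Spock3*. In alpha cells the shares were 79.81% for *Hhex*, 82.75% for *Ly6h* and 20.43% for *Rbp4*. In WT beta cells they were 3.037% for *Fam159b* and 19.14% for *Rbp4*. Free RNA, doublets and cells that make both hormones cannot be told apart from these ratios.

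With every cell that held an *Sst* UMI left out, a comparison added after the data were seen, 0 members were higher in beta cells at 5 weeks and 2 were lower, of 3 compared, beside 7.36% of 11073 genes higher and 7.28% lower. *Fam159b* was 3.812-fold lower, at 10 against 38.13 CPM in WT (-1.93, -2.21 to -1.66). *Rbp4* was also lower, at 16.38 against 39.26 CPM (-1.26, -1.49 to -1.04), and *Cd24a* was at -0.50. *Hhex* was at 0.6713 against 0.1609 CPM, a 4.172-fold higher level (2.06, -0.17 to 5.29), but its 10 and 2 UMIs are under the minimum of 20 and it was not counted. These 3084 mutant and 6560 WT beta cells had median depths of 3760.5 and 1628 UMIs, and the median of all genes was 0.11. In alpha cells *Rbp4* alone could be compared, at 856.2 against 1007.0 CPM (-0.23), and it did not pass 2-fold, beside 6.39% of 8984 genes higher and 2.64% lower. The direction in beta cells at 5 weeks was therefore higher over all cells and lower over cells with no *Sst* UMI for *Rbp4*, and lower in both for *Fam159b*.

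In beta cells at 1 week 3 of 5 members were lower and 0 higher, beside 3.89% of 11646 genes lower and 55.0% higher (12.9% and 11.2% under TMM scaling). *Rbp4* was at -1.79 (-1.99 to -1.59), *Cd24a* at -2.20 (-3.34 to -1.20) and *Ly6h* at -4.11 (-7.21 to -2.16) from 37 WT and 2 mutant UMIs. *Fam159b* was at 0.88 (0.74 to 1.03) and *Hhex* at 0.24 (-0.72 to 1.22), and the median of all genes was 1.10. A single cell with 1% or more *Sst* gave 14 of the 21 *Hhex* UMIs, and without such cells *Hhex* was at -1.34 (-2.83 to -0.03) and counted as lower. This made 4 of 5 members lower, beside 3.89% of 11637 genes lower and 55.0% higher. *Sst* was also lower in these cells, at 38.74 against 261.4 CPM. Among cells with no *Sst* UMI 2 of 3 members were lower and 0 higher, beside 3.34% of 11253 genes lower and 58.0% higher. *Rbp4* was still lower, at 11.24 against 39.26 CPM (-1.80). *Cd24a* was lower at -1.54 (-3.15 to -0.17), from 20 WT and 6 mutant UMIs, and *Fam159b* was at 0.92. Free RNA was estimated from the shallowest barcodes of each library. In WT these were 1200 barcodes of up to 650 UMIs, with *Sst* at 46657.4 and *Rbp4* at 2744.7 CPM. WT delta cells had a median of 622 UMIs, so this estimate can hold delta cells and does not isolate free RNA. Subtracting it left the WT sums of *Rbp4* and *Fam159b* at 0. They were the 2 members that could be compared and both counted as higher, beside 78.5% of all genes. These calls therefore show no direction. Under the filter of 200 to 1500 genes per cell, without the 5000-UMI minimum, shallower 1-week cells were kept. The directions of *Rbp4*, *Ly6h* and *Cd24a* then turned. In alpha cells at 1 week *Rbp4* was at 0.86 (0.79 to 0.93) and 0 of 2 members passed 2-fold, beside 33.3% of 9920 genes higher and 6.17% lower (17.4% and 11.8% under TMM scaling).

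*Fam159b* and *Rbp4* were also held by WT cells with no *Sst* UMI. *Fam159b* was at 38.13 CPM in WT beta cells with no *Sst* UMI, near the 38.53 CPM of all WT beta cells. *Rbp4* was at 1007.0 CPM in WT alpha cells with no *Sst* UMI, near the 1001.9 CPM of all. *Hhex* was at 0.1609 CPM in the former cells (2 UMIs), below the 0.2413 CPM that 3 UMIs give.

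The genes around the members in their pathways were described from 5 lists, by the genes past 2-fold in delta cells. Of 12 delta-cell transcription factors 10 could be compared at 5 weeks, of which 3 were higher and 0 lower, with a list median of 0.37 against 0.19 for all genes, of which 11.7% were higher and 2.48% lower. These were *Pdx1* at 1.14 (38.77 CPM in WT, 85.62 at 5 weeks and 86.85 at 1 week), *Rfx6* at 1.06 and *Nkx6-1* at 1.07, all factors of islet cell identity. *Isl1*, the most abundant of the list in WT delta cells at 396.8 CPM, was at 0.23, and *Pax6* at -0.24. At 1 week 2 of 10 were higher and 0 lower, *Foxa2* at 1.30 and *Pdx1*, with a median of 0.50 beside 0.53, and with 27.3% of all genes higher and 3.27% lower.

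Of 24 receptors and channels 12 could be compared at 5 weeks, with 0 higher and 1 lower and a median of -0.26, beside 11.7% of all genes higher and 2.48% lower and their median of 0.19. The lower gene was *Gria3*, a glutamate receptor subunit, at -1.93 from 13 WT and 12 mutant UMIs. *Abcc8*, the sulfonylurea receptor of the KATP channel, was at -0.29 and *Gria2* at -0.73. At 1 week 1 of 8 was higher and 1 lower, beside 27.3% and 3.27% of all genes. *Ffar4*, a receptor for long-chain fatty acids, was the higher one at 2.00 (34.21 CPM in WT and 136.7 at 1 week).

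Of the 18 genes of the Neurog3 programme 12 could be compared at 5 weeks, with 4 higher and 1 lower and a median of 0.36, beside the same 11.7%, 2.48% and 0.19 of all genes. *Cdkn1a*, a cell cycle inhibitor, was at 1.18 in delta cells and at 3.30 in beta cells, and *Gadd45a*, a stress gene, at 2.04 from 2 WT UMIs. *Rfx6* and *Amotl2* were the other higher genes, and *Dlk1* was lower at -1.81 on 10 UMIs in each library. *Insm1* and *Neurod1*, which act just after NEUROG3 in progenitors, were at -0.40 and 0.21. At 1 week 2 of 11 were higher and 0 lower, *Neurog3* being 1 of them, beside 27.3% and 3.27% of all genes.

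Of 17 partners of the members 7 could be compared at 5 weeks, with 2 higher and 1 lower and a median of -0.19, against 11.7% and 2.48% of all genes and 0.19. *Ttr*, which encodes transthyretin, the plasma partner of RBP4, was lower in delta cells at both times, at 609 CPM in WT, 65.94 at 1 week (-3.21) and 251.7 at 5 weeks (-1.27). It was also lower in alpha cells, where it is far more abundant, at 37541.3, 6775.1 and 14785.4 CPM, while *Rbp4* was not. *Ghrl*, the ligand of GHSR, gave 839 UMIs in 5-week delta cells against 1 in WT, but 837 of them lay in 1 cell. *Ptn*, the ligand of PTPRZ1, was 2.821-fold higher at 1 week, from 10 WT and 40 mutant UMIs. *Ncam1* and *Tnr* were at -0.30 and -0.19 at 5 weeks. Of 16 genes of the members' families 7 could be compared, with 0 higher and 1 lower at 5 weeks, *Ptprg* at -1.70, and with 0 of 7 past 2-fold at 1 week. *Prox1* was at 0.36 and *Ptprn* at -0.81 at 5 weeks.

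Genes with a pattern like that of a member were sought by the Pearson r of log2(CPM + 5) over the 9 class and library sums, among 11997 genes. The sums share libraries and depth, and any gene high in delta cells alone scores near 1, so these are descriptions. The 2 nearest genes were *Gap43* (0.993) and *Adgrf5* (0.992) for *Hhex*, *Ppy* (0.981) and *Man2a1* (0.972) for *Rbp4*, and *Tmem191c* (0.984) and *Filip1* (0.979) for *Fam159b*. *Ly6h* lay nearest to *Mef2c* (0.996) and *Ppp1r17* (0.989), and *Cd24a* to *Tagln3* (0.991) and *Ppp1r17* (0.989). *Lmo3* and *Fstl5* were nearest to both *Ghsr* (0.998 and 0.996) and *Ptprz1* (0.998 and 0.999), *C230004F18Rik* (0.996) and *Asic2* (0.994) to *Spock3*, and *Ptn* (0.999) and *Cacna1h* (0.997) to *Neurog3*.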

How the data were processed

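Islet cells were measured by 10X Genomics single-cell RNA-seq in 3 libraries. The deposited values are raw UMI counts per gene and barcode that the authors made with Cell Ranger 3.1 on mm10, after bcl2fastq 2.17.1.14 per the submitters' processing notes, which also name Seurat 3.1.4. Samples were grouped by their GEO titles, and 0 sample columns were left unused. In WT only, the authors removed doublets and down-scaled the library to 12000 cells. Cells were assigned by hormone shares as stated in the report, with the *Gcg* limits of 5% and 3% also used at 1 week. Counts were summed per class and library and given as CPM, with exact Poisson and conditional binomial intervals at the 95% level, a floor of 3 counts and a minimum of 20 UMIs, in Python 3.11.15 and scipy 1.17.1. The steps were checked on simulated data. TMM factors came from edgeR 4.0.16 under R 4.3.3. PCR and pooling leave intervals covering counting error only, and 3′ counts were not compared between genes as molar levels.

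The members and lists were chosen with earlier results of these data known. Named were the members, hormones and label checks, per list the 3 highest genes in WT delta cells and the 3 largest changes past 2-fold in any class, of which those in delta and beta cells are given, the 5 leading delta genes and the 2 most alike genes per member. The lists hold *Hhex*, *Ghsr* and *Neurog3* themselves. Promoter and gene positions are RefSeq's on GRCm38.p6, the sequence of mm10. All 9 members matched the gene table, *Fam159b* through its synonym, and 7 of 9 had promoters, not *Ly6h* and *Cd24a*.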

Additional observations from a re-analysis of the deposited data

Results flagged for a closer look

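Some members went opposite ways against WT in different cell classes, all as log2 ratios between single libraries, and the difference was not tested. *Rbp4* at 1 week was at -0.27 in delta cells and -1.79 in beta cells but at 0.86 in alpha cells. *Fam159b* at 5 weeks was at -0.32 in beta and 2.94 in alpha cells. *Ly6h* at 5 weeks was at -0.42 in delta cells but at 2.17 in beta and 4.57 in alpha cells. *Cd24a* was at -0.53 in delta cells against 1.42 and 1.40 in beta and alpha cells, and *Spock3* at -1.11 in delta against 2.82 in beta cells. The positive values of *Ly6h* and *Cd24a* in beta cells were not seen among cells with no *Sst* UMI (-0.45 and -0.50). *Fam159b* was at -1.93 in those beta cells. In alpha cells with no *Sst* UMI *Fam159b* was at 0.32, *Ly6h* at 1.87 and *Cd24a* at -0.09. Each of these alpha-cell values rests on under 20 UMIs, with an interval that includes 0, and shows no direction. Over all cells *Spock3* in beta cells rested on 3 WT UMIs and *Ly6h* in alpha cells on 2. Cells with hormones of more than 1 class were removed from WT only.

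Members were also seen in cells outside the 3 classes above the level that beta and alpha cells of the same library held. The endothelial cells at 5 weeks, 219 cells with 4 or more of 10 endothelial markers, held *Cd24a* at 526.4 CPM (448 to 614.6, 160 UMIs in 106 cells), above the 284.1 CPM of delta cells, and their *Sst* UMIs at the delta-cell ratio correspond to 0.9513% of it. Cells with high *Ppy* held *Rbp4* at 2156.6 CPM at 5 weeks (91 UMIs, 27 cells). At 1 week the limit for such cells was 1.5% *Ppy*, and delta cells of that library had a median share of 2.976%. *Ppy* over this limit thus does not set a cell apart from delta cells. There 6 such cells held *Hhex* at 173.1 CPM and *Fam159b* at 331.1 CPM, each in 3 cells. Of these, 1 gave 18 of 23 *Hhex* and 20 of 44 *Fam159b* UMIs. Without that cell, left out after the data were seen, they were at 44.06 (14.31 to 102.8) and 211.5 CPM (135.5 to 314.7). Their *Sst* UMIs at the delta-cell ratio correspond to 0.06659% of the 23 *Hhex* UMIs. The 95 unassigned 1-week cells held *Hhex* at 62.23, *Fam159b* at 191.8, *Cd24a* at 63.51 and *Ptprz1* at 21.81 CPM, in 19, 63, 19 and 13 cells. The 212 unassigned WT cells held *Fam159b* at 70.75 CPM (29 UMIs in 23 cells). They also held *Ins2* at 348038.2 and *Gcg* at 35822.6 CPM, so insulin-rich cells are among them. WT beta cells held *Ins2* at 437624.3 and *Fam159b* at 38.53 CPM.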

How the results depend on the processing

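No paired analysis was possible because each group is 1 library, and for the same reason no library could be left out. Of 102 recomputed counts of members 85 stayed within 1.5 times the reported one and 17 did not, and of 400 recomputed member values 311 stayed within the reported interval, 74 left it and 15 turned. The causes were not tested unless stated. With cells thinned to 500 UMIs, where fewer members could be compared, the counts were 1 for delta-high members at 1 week (7 reported), 4 in beta cells at 5 weeks (7), 2 in alpha cells at 5 weeks (6) and 1 in beta cells at 1 week (3). After thinning, 11.3% of genes were higher and 5.42% lower in beta cells at 5 weeks. The shares were 6.97% and 2.69% in alpha cells at 5 weeks, and 55.1% and 3.43% in beta cells at 1 week. With the filter of 200 to 1500 genes per cell 0 members were delta-high at 1 week, of 1 compared, beside 2.17% of genes. In delta cells at 1 week 0 members changed under this filter, beside 20% of genes higher and 3.48% lower. Without cells of 1% or more *Sst*, 2 members were past 2-fold in beta cells at 5 weeks, *Fam159b* lower and *Neurog3* higher, and 1 in alpha cells, *Cd24a*, lower. The shares of all genes there were 7.72% higher and 7.41% lower in beta cells, and 6.31% and 2.30% in alpha cells. Without any *Sst* UMI the counts of members were 2 and 0, beside 7.36% and 7.28% of genes in beta cells and 6.39% and 2.64% in alpha cells. With free RNA subtracted they were 0 (none could be compared) and 1, with 2 in delta cells at 5 weeks, *Cd24a* and *Spock3*. The shares of all genes were then 31.6% higher and 10.3% lower in alpha cells, and 26.7% and 8.52% in delta cells. The free RNA estimate can hold delta cells, as stated above, in every result given for it. In alpha cells at 1 week the count was 1 in place of 0 with free RNA subtracted, TMM factors, hormones left out of the total or no minimum of 20 UMIs. In this order 60.9%, 17.4%, 21.6% and 26.8% of genes were higher, and 3.59%, 11.8%, 9.51% and 9.14% lower. Values that turned, as log2 ratios at 5 weeks without cells of 1% or more *Sst*, were -0.12 for *Rbp4* and -0.14 for *Cd24a* in beta cells, and -1.12 for *Cd24a* and -0.78 for *Ptprz1* in alpha cells. Without any *Sst* UMI they were -1.26 for *Rbp4*, -0.45 for *Ly6h*, -0.50 for *Cd24a* and -1.26 for *Ptprz1* in beta cells, and -0.94 for *Hhex*, -0.09 for *Cd24a* and -0.36 for *Neurog3* in alpha cells. Of these, *Ptprz1* rests on 1 mutant and 2 WT UMIs and the alpha-cell values on 1 and 1, 9 and 5, and 3 and 2, and their intervals and those of *Ly6h* and *Cd24a* in beta cells include 0, so these values show no direction. In beta cells at 1 week *Ly6h* was at 0.29 after thinning, where 1 UMI gives 3.559 CPM. Another thinning draw held 0 *Ly6h* UMIs in these cells, so this value shows no direction. *Rbp4*, *Ly6h* and *Cd24a* were at 1.78, 0.66 and 1.26 in beta cells at 1 week under the filter of 200 to 1500 genes per cell. *Rbp4* also turned to higher there with the free RNA estimate subtracted, against a WT sum of 0. TMM factors moved the median of all genes from 0.53 to 0.03 in delta, 1.10 to 0.05 in beta and 0.63 to 0.15 in alpha cells at 1 week, and from 0.19 to 0.07 in delta and 0.18 to 0.06 in beta cells at 5 weeks. Depth limits *Ghsr*, *Neurog3* and *Spock3* most, with 5, 15 and 27 UMIs in WT delta cells.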

Other observations

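In beta cells at 5 weeks 9.43% of 11882 genes were higher than in WT and 5.99% lower, each value resting on 1 library per group. Of 11 delta-cell transcription factors 2 were higher and 0 lower, with a median of -0.01, and of 7 genes of the members' families 0 passed 2-fold. Of 14 receptors and channels 1 was higher and 4 were lower, with a list median of -0.20 against 0.18 for all genes. *Gipr*, the receptor of the incretin GIP, was lowest at -2.62 (-2.91 to -2.34, 28.8 CPM in WT and 4.682 at 5 weeks), followed by *Gcgr*, the glucagon receptor, at -1.75, *Gria3* at -1.57 and *Sstr3*, a somatostatin receptor, at -1.16. *Galr1*, a galanin receptor, was the higher gene at 1.19. In the Neurog3 programme 5 of 14 were higher and 1 lower, with a median of 0.28. *Cdkn1a* was at 12.84 CPM in WT beta cells, 215.5 at 1 week (4.07) and 126.8 at 5 weeks (3.30), and *Gadd45a* at 4.01 at 1 week, where the median of all genes was 1.10. *Sox4* was the lower gene at 5 weeks, with 26.87 CPM in WT and 9.507 at 5 weeks. Of 8 partners of the members 1 was higher and 2 were lower. *Rbp2*, an intracellular retinol binding protein, gave 20 UMIs in WT beta cells and 0 at 5 weeks, and *Ptn* 3 and 33.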
